A study of Danio rerio with 12 samples.

Results

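Nuclear receptors that act outside the glucocorticoid, circadian and immediate-early systems were examined in the adult zebrafish brain with and without a functional glucocorticoid receptor (GR). Members were taken by gene symbol, and comprised the thyroid hormone, retinoic acid, retinoid X, sex steroid, oestrogen-related, peroxisome proliferator-activated and vitamin D receptors, HNF4 and every gene named NR by the receptor nomenclature, apart from the Rev-erb genes, the NR4A genes, *nr3c1* and *nr3c2*. The rule matched 55 of 32520 gene IDs, and 46 of the 55 met the minimum level for testing, which was 10 normalised counts or more in 6 or more of the 12 libraries and was met by 20114 genes in all. The remaining 9 were below that level and are described by their reads. The name table used here gives many zebrafish genes the symbol of their human counterpart, without the paralog letter, so that genes sharing a symbol are identified by their Ensembl ID.

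Most nuclear receptors are transcription factors that bind DNA directly, and most change their activity when a small lipophilic molecule occupies the ligand pocket. Thyroid hormone, retinoic acid, vitamin D and lipid-sensing receptors bind DNA as heterodimers with a retinoid X receptor (RXR), whereas steroid receptors act mainly as homodimers, and the orphan receptors of the NR2F (COUP-TF) family have no established natural ligand. In the brain these receptors are known for roles in neural patterning, glial maturation, reproductive behaviour and lipid metabolism. Teleost fish retain duplicated copies of many of these genes from an ancient genome duplication, which allows the copies of a receptor to be compared within one brain.

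RNA-Seq was performed on whole brains, with the olfactory bulbs and pituitary attached, from 12 male zebrafish aged 22 months, with 1 library per brain. Wild-type fish (*gr* +/+, n = 6) and GR-mutant fish (*gr* s357/s357, n = 6) were siblings from in-crosses of heterozygotes for s357, a missense allele of *nr3c1*, and no other allele or treatment is given for either group. The genotypes were raised to adulthood and then kept in separate tanks, so that tank and genotype cannot be told apart. All brains were collected in the morning, and each library is therefore a single time of day.

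The libraries held between 24407683 and 37548901 reads assigned to genes. Because s357 is a missense allele, the *nr3c1* transcript does not check the labels, and it was detected in every brain, at 4107 to 4567 normalised counts in wild-type and 4669 to 4955 in GR-mutant fish. Neuronal, glial and myelin markers were present in all 12 brains. A bulk level cannot distinguish fewer cells of a type from less RNA per cell, and this holds for each gene described here. The values are counts per gene that were not divided by transcript length, so levels were compared between genotypes and not between genes.

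Most of these receptors did not differ detectably between wild-type and GR-mutant brains, and 9 of the 46 tested did. *NR1I2*, *ESR1*, *ESR2* (ENSDARG00000034181), *THRA* (ENSDARG00000000151) and *rxrbb* were lower in GR-mutant brains, and *NR2F1* (ENSDARG00000052695), *NR2F6* (ENSDARG00000003165), *RXRB* and *THRA* (ENSDARG00000052654) were higher (limma, Benjamini-Hochberg adjusted p under 0.05). The 9 genes are 19.6% of the receptors tested, against 17.5% of all genes tested, a share near the background. In all genes 7.59% were higher and 9.92% lower. The median log2 fold change (GR-mutant minus wild-type) was 0.03 over the 46 receptors and 0.01 over all genes.

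**Figure D1:**
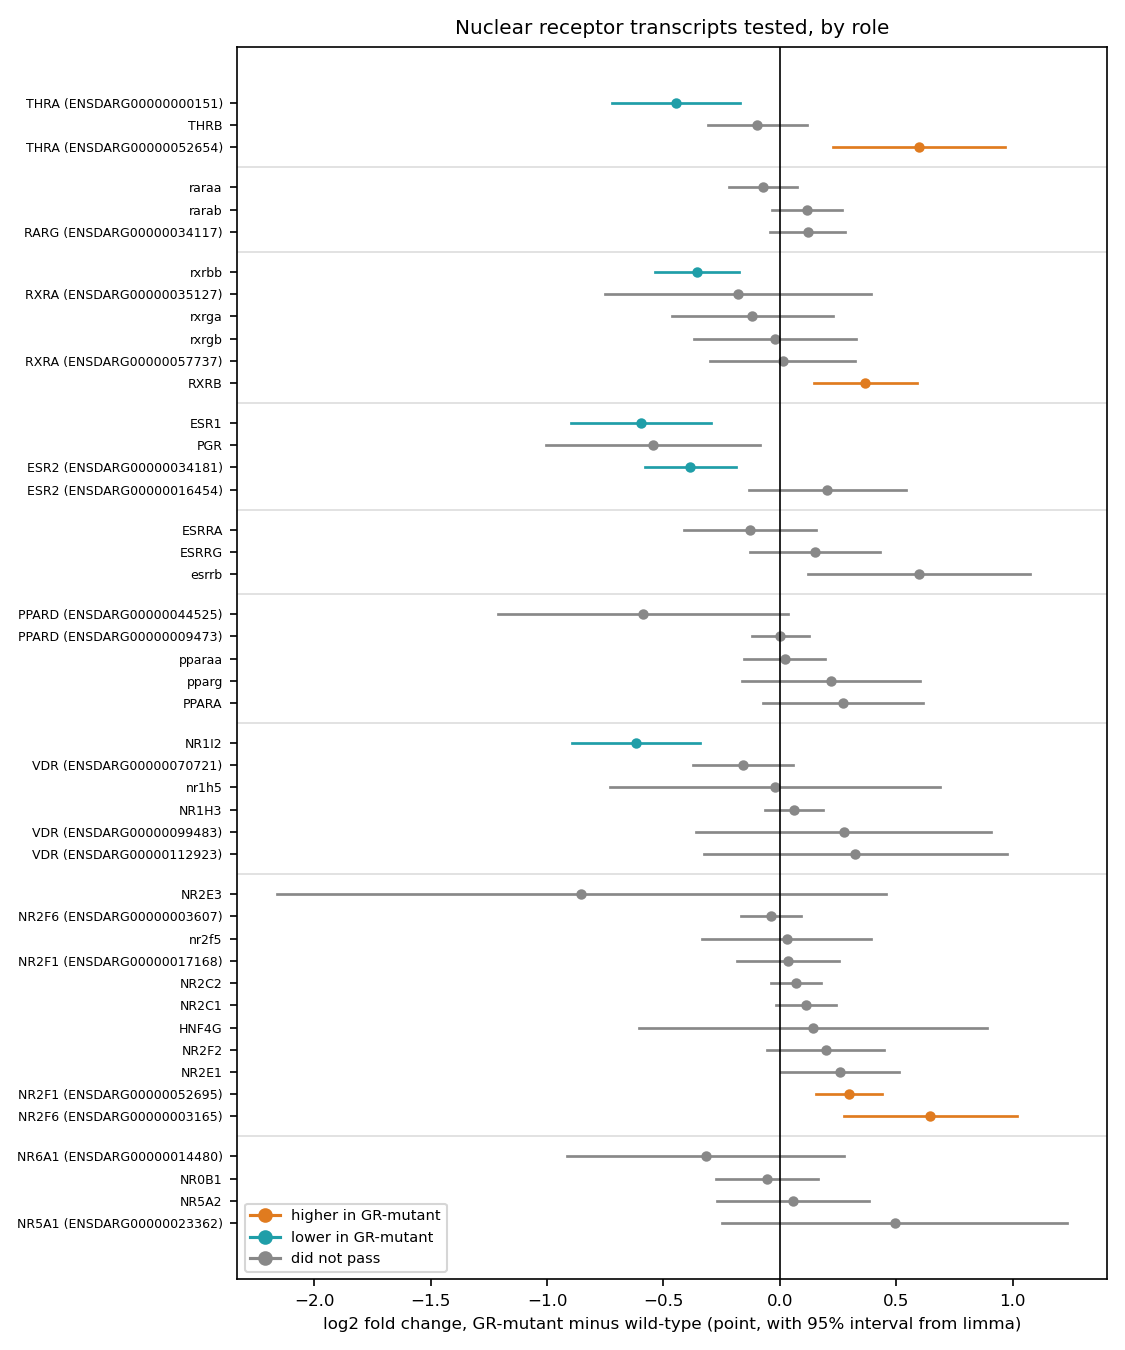
Log2 fold change of 45 of the 46 receptors tested (GR-mutant minus wild-type, point) with its 95% interval from limma, grouped by receptor class. 4 receptors were higher (orange) and 5 lower (teal); the grey points did not pass the test, and the widest intervals are those of the sparsely counted *NR2E3*, *HNF4G* and *NR5A1* (ENSDARG00000023362).

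The split between higher and lower depended on the scaling of the libraries. Total normalised counts were 29540644 to 31637122 in wild-type and 28539104 to 29513949 in GR-mutant brains, without overlap. When every library was scaled to the same total, the median of all genes moved from 0.01 to 0.09 on the log2 scale and 7 receptors were higher and 4 lower in place of 4 and 5. Of the 9 receptors, *THRA* (ENSDARG00000000151) was lost under that scaling, and *NR2C1*, *NR2E1* and *esrrb* were gained. Summed over all 55 matched receptors, the level was 29964 to 32540 normalised counts in wild-type and 31051 to 33648 in GR-mutant brains, which overlap. As a share of each library's total, the sum was 0.0988 to 0.1068% in wild-type and 0.1059 to 0.1144% in GR-mutant brains. On that scale only GR-mutant replicate 4 lay within the wild-type range.

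All 9 changes were modest, with no absolute log2 fold change above 0.65. The 4 rises became 2 without wild-type replicate 4 or GR-mutant replicate 1, 3 or 5, and the calls that ended are given with each receptor. The single receptor without overlap between the genotypes was *ESR2* (ENSDARG00000034181), which is 2.17% of the receptors against 8.27% of all genes. Brain-to-brain variation was wider for sparse receptors. For the 29 receptors with a mean of at least 100 normalised counts, the median coefficient of variation was 12.4% in wild-type and 10.4% in GR-mutant fish, and for the 17 below that mean it was 26.0% and 21.5%. Of the 37 receptors that did not pass, 23 had a 95% interval lying within a 1.5-fold change either way, and for the other 14 a change of that size was not excluded by the interval.

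**Figure D2:**
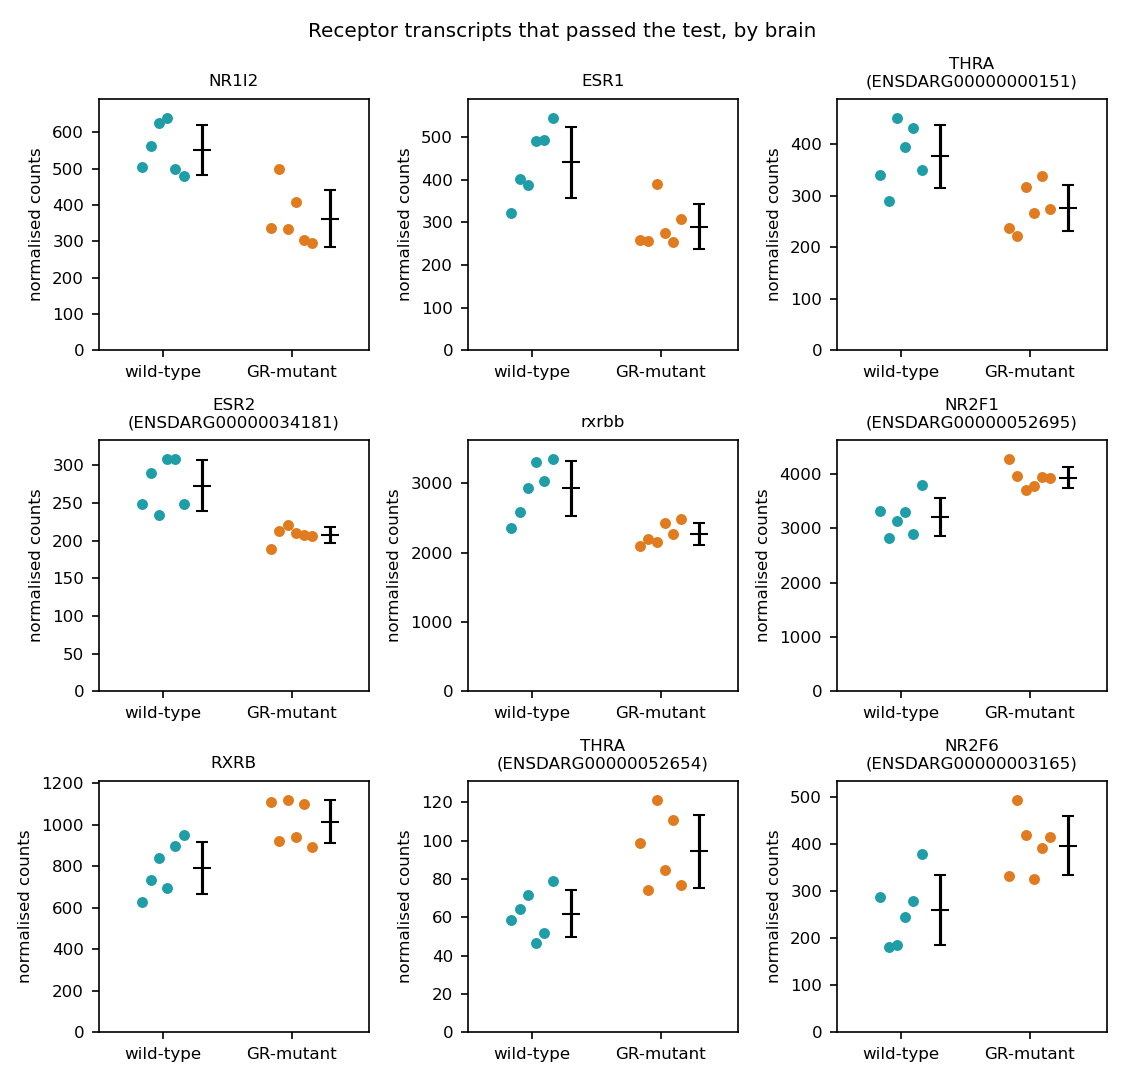
Normalised counts of the 9 receptors that passed the test, 1 point per brain (6 wild-type, teal; 6 GR-mutant, orange), with the mean and SD at the right of each group; each axis starts at 0. Only *ESR2* (ENSDARG00000034181) separates the genotypes fully, at 233 to 309 in wild-type and 189 to 221 in GR-mutant brains.

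The thyroid hormone receptors, which bind triiodothyronine and recruit corepressors in its absence, changed in opposite directions between the *THRA* copies. *THRA* (ENSDARG00000000151) had 291 to 452 normalised counts (median 373) in wild-type brains and 223 to 338 (median 271) in GR-mutant brains. In 4 of the 6 GR-mutant brains the value was below every wild-type value, and the log2 fold change was -0.45 (SE 0.13, adjusted p = 0.0291). *THRA* (ENSDARG00000052654) went the other way, from 46.4 to 78.7 (median 61.5) in wild-type to 74.2 to 121 (median 91.5) in GR-mutant brains, with 4 GR-mutant brains above every wild-type one and a log2 fold change of 0.60 (SE 0.17, adjusted p = 0.0288). *THRB*, the other thyroid hormone receptor gene, was at 4106 to 5942 (median 4773) and 4013 to 5552 (median 4228) and did not pass (log2 fold change -0.10, 95% interval -0.31 to 0.11, adjusted p = 0.528).

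Taken singly, both *THRA* changes lay close to the threshold. Leaving out wild-type replicate 3, 4 or 5 or GR-mutant replicate 1, 2 or 4 raised the adjusted p of *THRA* (ENSDARG00000000151) to between 0.0507 and 0.0636, and leaving out wild-type replicate 4 or 5 or GR-mutant replicate 1, 3 or 5 raised that of *THRA* (ENSDARG00000052654) to between 0.0576 and 0.0668. The ratio of the copies within each brain gave a wider separation. The log2 ratio of ENSDARG00000000151 to ENSDARG00000052654 had a mean and SD of 2.59 ± 0.40 in the 6 wild-type brains and 1.55 ± 0.20 in the 6 GR-mutant brains. The difference was -1.05 (SE 0.18, exact permutation test, two-sided p = 0.00216, adjusted p = 0.00938 over 13 pairs), and no ratio of one genotype lay within the range of the other. Expressed as a share of the counts of the pair, ENSDARG00000052654 supplied 10.5 to 18.3% in wild-type and 21.8 to 29.3% in GR-mutant brains, while the summed counts overlapped (355 to 523 and 297 to 449).

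Among genes that supply thyroid hormone to its receptors, the one called was *DIO2*. This deiodinase converts thyroxine to the active triiodothyronine within the brain. *DIO2* was at 2173 to 3919 normalised counts (median 3600) in wild-type and 1085 to 1636 (median 1266) in GR-mutant brains. No GR-mutant brain reached the lowest wild-type value, and the log2 fold change was -1.28 (SE 0.15, adjusted p = 9.80e-05). Of 11 tested genes for deiodinases, transporters, a binding protein, receptor-associated proteins, thyrotropin and its receptor, *DIO2* fell, none rose and 10 did not pass. Among all genes 17.5% were called. *SLCO1C1*, a thyroxine transporter of the blood-brain barrier in mammals, was just outside the threshold (log2 fold change 0.29, adjusted p = 0.0509), and the median of the list was -0.06 beside 0.01 for all genes.

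Retinoid X receptors, the shared heterodimer partners, likewise showed opposed changes of a duplicated gene. *rxrbb* was lower, with 2352 to 3354 normalised counts (median 2981) in wild-type and 2091 to 2486 (median 2231) in GR-mutant brains (log2 fold change -0.36, SE 0.08, adjusted p = 0.0114). Its paralog, listed as *RXRB*, was higher, at 628 to 952 (median 788) and 894 to 1120.4 (median 1021), with a log2 fold change of 0.37 (SE 0.10, adjusted p = 0.0272). The call of *rxrbb* was kept without any single library. That of *RXRB* was lost without wild-type replicate 4 or GR-mutant replicate 1, 3 or 5, with an adjusted p of 0.0589 to 0.0622.

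Within brains, the log2 ratio of *rxrbb* to *RXRB* averaged 1.89 ± 0.18 (SD) in the 6 wild-type and 1.16 ± 0.23 (SD) in the 6 GR-mutant fish, again without overlap (difference -0.72, SE 0.12, exact permutation p = 0.00216, adjusted p = 0.00938). *RXRB* made up 17.4 to 22.8% of the counts of the pair in wild-type and 26.4 to 34.6% in GR-mutant brains. The other RXR genes did not pass. *RXRA* (ENSDARG00000057737) was at 95.03 to 158 (median 122) in wild-type and 98.8 to 143 (median 129) in GR-mutant brains, with a log2 fold change of 0.01 and a 95% interval of -0.30 to 0.32 (adjusted p = 0.966). *RXRA* (ENSDARG00000035127) was sparser, at 16.6 to 34.1 (median 23.9) and 11.9 to 31.4 (median 20.5), and its interval of -0.75 to 0.39 reached a change of 1.5-fold (log2 fold change -0.18, adjusted p = 0.678). The values of *rxrga* and *rxrgb* were -0.12 and -0.02, with intervals of -0.47 to 0.23 and -0.37 to 0.33.

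Retinoic acid receptors, which activate genes in response to all-trans retinoic acid, gave no call. *raraa* was at 816 to 1089.7 normalised counts in wild-type and 867 to 960.04 in GR-mutant brains, *rarab* at 684 to 848 and 768 to 879, and *RARG* (ENSDARG00000034117) at 738 to 1052 and 934 to 1056. Their log2 fold changes were -0.07, 0.12 and 0.12, and the 95% intervals lay between -0.22 and 0.28. *RARG* (ENSDARG00000054003) was below the filter, with 2 to 6 reads per wild-type and 2 to 7 per GR-mutant library.

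Of the genes that make, carry and break down retinoic acid, 5 of 27 tested were higher, 1 was lower and 21 did not pass. The median log2 fold change was 0.18, beside 0.01 for all genes, of which 7.59% were higher and 9.92% lower. With the replicate number as a block, 2 retinoid genes were higher and 1 lower. *ALDH1A2*, which catalyses the last step of retinoic acid synthesis, was at 604 to 855 normalised counts (median 667) in wild-type and 857 to 1091 (median 950) in GR-mutant brains (log2 fold change 0.45, adjusted p = 0.00420). *CRABP2* (ENSDARG00000030449), a carrier of retinoic acid to the nucleus, was at 35.9 to 67.8 and 85.8 to 140.4 (log2 fold change 0.98, adjusted p = 0.00208). Both genes, and *RDH10* (ENSDARG00000058730), which oxidises retinol (log2 fold change 0.25, adjusted p = 0.0132), had no overlap between the genotypes. The call of *RDH10* was lost with the replicate block (adjusted p = 0.103).

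The remaining retinoid genes that were called are a degrading enzyme, a carrier and a retinal reductase. *CYP26B1*, a hydroxylase that clears retinoic acid, was higher (1142 to 1998 against 1699 to 2904 normalised counts, log2 fold change 0.55, adjusted p = 0.0382), as was *rbp5*, a retinol-binding protein (0.51, adjusted p = 0.0222). *DHRS3* (ENSDARG00000044982), which reduces retinal to retinol, was lower (200.2 to 275 against 117 to 203, log2 fold change -0.57, adjusted p = 0.00842). *CYP26B1* was not called without wild-type replicate 1, 3, 4 or 7 or GR-mutant replicate 3, 4 or 5 (adjusted p = 0.0508 to 0.0838). The call of *rbp5* was lost without GR-mutant replicate 3 (adjusted p = 0.0504). Those of *ALDH1A2*, *CRABP2* (ENSDARG00000030449) and *DHRS3* (ENSDARG00000044982) held in every alternative in which they were tested.

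Sex steroid receptors, which mediate the actions of gonadal hormones on neurons and radial glia, included 2 genes that fell. *ESR1*, an oestrogen receptor of hypothalamic and preoptic neurons, was at 322 to 545 normalised counts (median 447) in wild-type and 253 to 389 (median 268) in GR-mutant brains. In 5 of 6 GR-mutant brains it was below every wild-type brain (log2 fold change -0.59, SE 0.14, adjusted p = 0.0110). *ESR2* (ENSDARG00000034181) fell from 233 to 309 (median 269) to 189 to 221 (median 209), a log2 fold change of -0.39 (SE 0.09, adjusted p = 0.0113). The other *ESR2* copy, ENSDARG00000016454, was at 121 to 216 (median 149) and 143 to 223 (median 177), and did not pass (log2 fold change 0.20, 95% interval -0.13 to 0.54, adjusted p = 0.392).

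The responses of the *ESR2* copies differed from each other. The log2 ratio of ENSDARG00000016454 to ENSDARG00000034181 averaged -0.82 ± 0.26 (SD) in the 6 wild-type and -0.23 ± 0.26 (SD) in the 6 GR-mutant brains, a difference of 0.59 (SE 0.15, exact permutation p = 0.00433, adjusted p = 0.0141), with ratios that overlapped slightly. The progesterone receptor *PGR* was not called. *PGR* was at 73.4 to 153 (median 108) in wild-type and 54.7 to 103 (median 81.0) in GR-mutant brains, with a log2 fold change of -0.55 (adjusted p = 0.0942), and it passed without wild-type replicate 5 (-0.67, adjusted p = 0.0439).

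Among genes of sex steroid synthesis, 2 of 14 tested were higher, 5 lower and 7 did not pass (median log2 fold change -0.14). For all genes tested the shares were 7.59% higher and 9.92% lower, with a median of 0.01. *HSD17B12* fell from 1251 to 1777 (median 1509) to 824 to 1066 (median 977) without overlap (log2 fold change -0.64, adjusted p = 0.000427). It is known in mammals for the elongation of very long chain fatty acids as well as for reducing oestrone. Its copy *hsd17b12b* did not pass (1681 to 1922 and 1763 to 1945, log2 fold change 0.07, adjusted p = 0.321). *HSD17B3*, which makes testosterone from androstenedione, fell from 467 to 943 to 366 to 486 (log2 fold change -0.72, adjusted p = 0.00572). Of the 5α-reductases, which reduce testosterone to dihydrotestosterone, *SRD5A2* (ENSDARG00000043587) fell from 22.6 to 58.8 to 4.52 to 12.1 (log2 fold change -2.03, adjusted p = 0.000928), and *SRD5A1* rose from 20.02 to 38.5 to 43.4 to 71.5 (0.79, adjusted p = 0.0131), both without overlap. *SRD5A2* (ENSDARG00000043587) would have met the minimum level through the wild-type brains alone, since its GR-mutant median was 6.86. The other *SRD5A2* ID, ENSDARG00000039067, did not pass (12.3 to 61.6 and 8.33 to 134, log2 fold change -0.51, adjusted p = 0.585).

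The other steroid enzymes that passed were less firmly resolved or have other known work. *SRD5A3* (log2 fold change -0.35, adjusted p = 0.0160) is known in mammals for making the dolichol used in protein glycosylation. Its call was lost with the replicate number as a block (adjusted p = 0.108). *HSD17B10* (-0.21, adjusted p = 0.0248) is a mitochondrial enzyme of several pathways. *HSD17B10* no longer passed with equal totals (-0.13, adjusted p = 0.121) or without wild-type replicate 3 or 4 or GR-mutant replicate 1 or 3 (adjusted p = 0.0530 to 0.0574). *hsd3b1*, an early step of steroid synthesis, was at 1.89 to 10.8 in wild-type and 3.57 to 45.4 in GR-mutant brains (log2 fold change 1.69, adjusted p = 0.0358). That call was lost without wild-type replicate 2, 3, 4 or 7 or GR-mutant replicate 1, 2, 3, 5 or 6, with an adjusted p of 0.0553 to 0.0800. *hsd3b1* met the minimum level largely through the GR-mutant brains, since its wild-type median was 5.26 and its highest wild-type value 10.8.

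**Figure D3:**
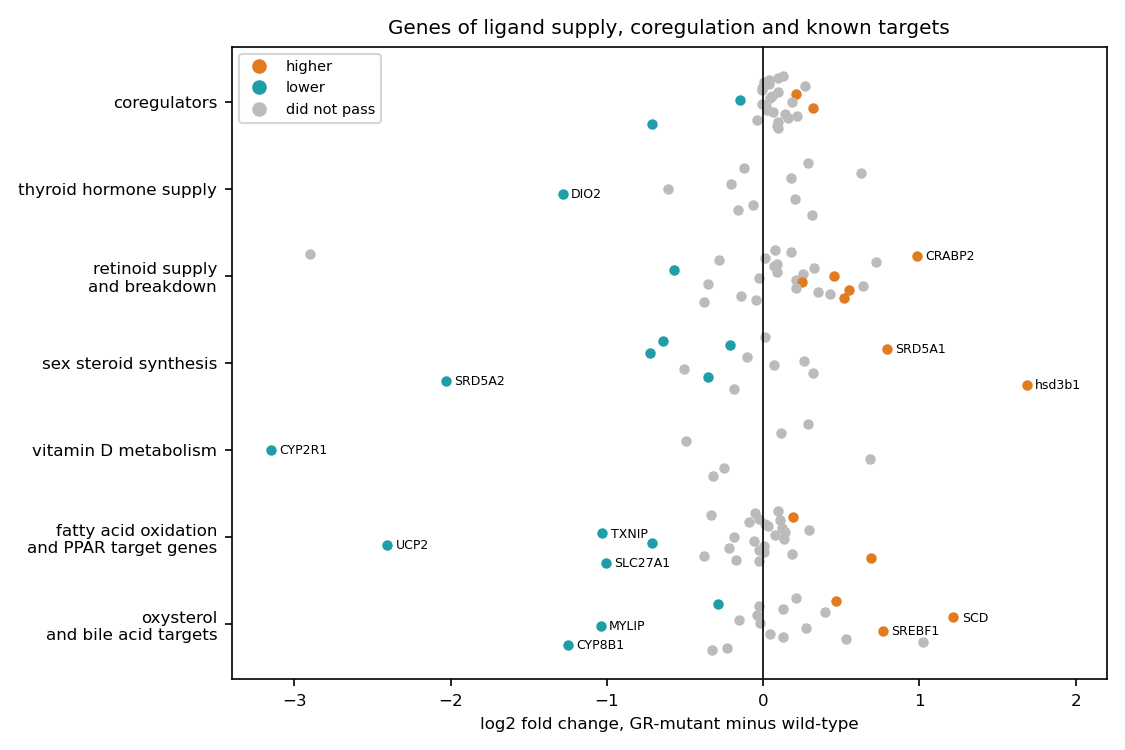
Log2 fold change (GR-mutant minus wild-type) of each tested gene of the 7 lists of coregulators, ligand supply and known targets, 1 point per gene; 14 of 135 were higher (orange), 17 lower (teal) and 104 did not pass (grey). The largest falls that passed were those of *CYP2R1*, *UCP2* and *SRD5A2*, of which *CYP2R1* and *SRD5A2* had GR-mutant medians under 10 normalised counts, and *DIO2* was the only thyroid gene called.

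Oestrogen-related receptors, orphan regulators of mitochondrial genes, gave no call. *ESRRA* was at 465 to 760.5 normalised counts in wild-type and 431 to 628 in GR-mutant brains (log2 fold change -0.13), and *ESRRG* at 233 to 438 and 310.1 to 417 (0.15). *esrrb* was more even among GR-mutant brains, at 69.6 to 84.2 (median 74.9), than among wild-type brains, at 27.5 to 84.1 (median 52.9). Its log2 fold change of 0.60 had an adjusted p of 0.0808, and it passed without wild-type replicate 3, the one wild-type brain in the GR-mutant range (0.75, adjusted p = 0.0258). *esrrgb* was below the filter, with 1 to 10 reads in wild-type and 1 to 12 in GR-mutant libraries.

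Peroxisome proliferator-activated receptors, sensors of fatty acids, were also not called. The narrowest interval was that of *PPARD* (ENSDARG00000009473), at 732 to 891 (median 775) in wild-type and 769.7 to 818 (median 787) in GR-mutant brains, with a log2 fold change of 0.00 and an interval of -0.12 to 0.12. *pparaa* was similarly bounded (0.02, interval -0.15 to 0.20), and *PPARA* and *pparg* had values of 0.27 and 0.22. The sparse copy, *PPARD* (ENSDARG00000044525), was at 13.8 to 54.3 (median 39.2) and 19.0 to 28.1 (median 22.6). Its log2 fold change was -0.59 (adjusted p = 0.177), with 1 low wild-type brain, replicate 1, without which it passed (-0.84, adjusted p = 0.0182).

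Of 29 tested genes of fatty acid oxidation and known PPAR targets, 2 were higher, 4 lower and 23 did not pass (median log2 fold change -0.02), a share near the 17.5% called among all genes. *UCP2*, a mitochondrial carrier, was at 497 to 1256 (median 1102) in wild-type and 80.4 to 593 (median 148) in GR-mutant brains (log2 fold change -2.40, adjusted p = 0.00134). *TXNIP* (ENSDARG00000036107), an inhibitor of thioredoxin and of glucose uptake, fell from 3599 to 4993 (median 4395) to 1705 to 2871 (median 2080.2) without overlap (-1.03, adjusted p = 6.48e-05). *SLC27A1* (ENSDARG00000104949), a fatty acid transporter, fell without overlap as well (-1.01, adjusted p = 0.000848), and *PLIN2*, which coats lipid droplets, fell with overlap (-0.71, adjusted p = 0.00638). *LPL* (ENSDARG00000087697), the lipase of lipoprotein triglyceride, rose (0.69, adjusted p = 0.0275), as did *FABP7* (ENSDARG00000007697), a fatty acid carrier of radial glia (0.19, adjusted p = 0.0381). The rise of *LPL* was lost without wild-type replicate 1 or 3 or GR-mutant replicate 2, 3 or 5 (adjusted p = 0.0511 to 0.0627). That of *FABP7* was lost without any of 9 libraries, wild-type replicates 1, 3, 4, 5 and 7 and GR-mutant replicates 1, 2, 4 and 5 (adjusted p = 0.0508 to 0.0857).

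Of the receptors that sense sterols, bile acids, xenobiotics and vitamin D, *NR1I2* was called. *NR1I2*, the pregnane X receptor, binds a broad range of foreign compounds and steroids, and in mammalian liver controls their metabolism. It was at 479 to 640.3 normalised counts (median 533) in wild-type and 296 to 497 (median 335) in GR-mutant brains, 5 of which were below every wild-type brain. The log2 fold change was -0.62 (SE 0.13, adjusted p = 0.00549), and the call held in all 23 alternatives, between -0.72 and -0.54.

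The oxysterol receptor *NR1H3* was evenly expressed, at 1732 to 1990.3 in wild-type and 1755 to 2095 in GR-mutant brains (log2 fold change 0.06, 95% interval -0.06 to 0.18). *nr1h5*, a relative of the bile acid receptor, was at 4.89 to 22.5 and 8.13 to 14.7 (-0.02), and *NR1H4*, the bile acid receptor itself, had at most 1 read in wild-type and 3 in GR-mutant libraries. The name table gives *VDR* to 3 IDs. ENSDARG00000070721 was at 163 to 209 and 138 to 189 (-0.16, adjusted p = 0.296), while ENSDARG00000099483 and ENSDARG00000112923 were sparse, with log2 fold changes of 0.27 and 0.32 and intervals beyond a 1.5-fold change. None of the *VDR* IDs passed.

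Known targets of the sterol receptors moved in both directions, with 3 of 20 tested higher, 3 lower and 14 not passing (median log2 fold change 0.09). Over all genes tested 7.59% were higher and 9.92% lower, with a median of 0.01. *SCD*, which desaturates fatty acids, rose from 90.4 to 179 (median 126) to 269 to 325 (median 286) without overlap (log2 fold change 1.22, adjusted p = 0.000147). *SREBF1*, a transcription factor for fatty acid synthesis and in mammals a target of the oxysterol receptors, rose from 352 to 628 to 588 to 1164 (0.77, adjusted p = 0.00685). *CYP7B1*, which hydroxylates oxysterols, rose by 0.46 on the log2 scale (adjusted p = 0.0309), a call lost without wild-type replicate 1, 4 or 5 or GR-mutant replicate 1, 3 or 5 (adjusted p = 0.0559 to 0.0691). Both IDs of *MYLIP*, the ubiquitin ligase of the LDL receptor and a further oxysterol receptor target in mammals, fell. ENSDARG00000008859 was at 2330.5 to 2523 in wild-type and 1765 to 2275 in GR-mutant brains (-0.29, adjusted p = 0.00735), and ENSDARG00000055118 was at 52.7 to 91.6 and 22.6 to 53.1 (-1.04, adjusted p = 0.00778).

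Of the enzymes of bile acid and vitamin D metabolism, *CYP8B1* (ENSDARG00000097556) and *CYP2R1* were called at low counts. *CYP8B1* (ENSDARG00000097556), a bile acid enzyme, was at 10.2 to 46.3 and 4.86 to 9.16 (log2 fold change -1.25, adjusted p = 0.0254). It did not pass without GR-mutant replicate 3 or 5 (adjusted p = 0.0502 to 0.0525), nor with the replicate number as a block (adjusted p = 0.119). *CYP2R1*, which makes 25-hydroxyvitamin D, was at 22.5 to 69.0 (median 39.5) in wild-type and 1.19 to 5.50 (median 4.62) in GR-mutant brains, a log2 fold change of -3.15 (SE 0.38, adjusted p = 9.71e-05). Both genes met the minimum level through the wild-type brains alone. *CYP2R1* was the single vitamin D gene called of 7 tested, beside 17.5% called among all genes. *CYP24A1*, the induced enzyme that degrades the hormone and a classical *VDR* target, had a value of -0.32 (adjusted p = 0.497).

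The NR2 receptors, orphan factors of neural patterning and neurogenesis, were grouped with HNF4, and of 11 tested 2 rose, none fell and 9 did not pass, beside 7.59% higher and 9.92% lower among all genes. *NR2F1* (ENSDARG00000052695), a COUP-TF gene involved in cortical and eye patterning in mammals, was at 2828 to 3789 normalised counts (median 3216) in wild-type and 3705 to 4283 (median 3935) in GR-mutant brains. Of the GR-mutant brains 4 exceeded every wild-type brain, and the log2 fold change was 0.30 (SE 0.07, adjusted p = 0.00827). *NR2F1* (ENSDARG00000017168) was at 208 to 275 (median 226) and 207 to 268 (median 255), with a log2 fold change of 0.03 and an interval of -0.18 to 0.25 (adjusted p = 0.851). The log2 ratio of the copies changed by -0.26 (SE 0.10, exact permutation p = 0.0238), which failed the correction over 13 pairs (adjusted p = 0.0610), so a difference in their responses was not established.

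*NR2F6* gave a clearer contrast between copies. *NR2F6* (ENSDARG00000003165) rose from 180.3 to 379 (median 261) to 326 to 494 (median 403), with 4 GR-mutant brains above every wild-type one (log2 fold change 0.65, SE 0.17, adjusted p = 0.0209). *NR2F6* (ENSDARG00000003607) was at 702 to 868 (median 744) in wild-type and 693 to 795 (median 741) in GR-mutant brains, with a log2 fold change of -0.04 and an interval of -0.17 to 0.09 (adjusted p = 0.706). The log2 ratio of the former to the latter averaged -1.59 ± 0.37 (SD) in the 6 wild-type and -0.91 ± 0.19 (SD) in the 6 GR-mutant fish, a difference of 0.68 (SE 0.17, exact permutation p = 0.00216, adjusted p = 0.00938), and the ratios did not overlap.

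The other NR2 genes did not pass. *NR2F2*, the second COUP-TF gene, was at 4553 to 8082 (median 5466) in wild-type and 5973 to 7254 (median 6321) in GR-mutant brains (log2 fold change 0.20, adjusted p = 0.262). Its highest value was that of wild-type replicate 1, without which the log2 fold change was 0.30 and the adjusted p 0.0276. *NR2E1*, the Tailless homologue that maintains adult neural stem cells in mice, was at 238 to 388 (median 278) and 288 to 391 (median 352), with a value of 0.26 (adjusted p = 0.144) that passed without the same replicate (0.35, adjusted p = 0.0320). The testicular receptors *NR2C1* and *NR2C2* had values of 0.11 and 0.07, *nr2f5* of 0.03 and *HNF4G* of 0.14. *HNF4A* was below the filter, with 0 to 4 reads in wild-type and 1 to 6 in GR-mutant libraries.

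None of the NR5, NR6 and NR0 receptors, known from steroidogenic and gonadal tissues, was called. *NR5A2* was at 129 to 240.2 in wild-type and 159.9 to 206 in GR-mutant brains (log2 fold change 0.06), and *NR0B1*, a repressor of the NR5A receptors, at 116 to 139 and 106 to 143 (-0.06). *NR6A1* (ENSDARG00000014480) had a value of -0.32 (adjusted p = 0.458). Under the filter, *NR5A1* (ENSDARG00000103176) had 4 to 8 reads in wild-type and 6 to 21 in GR-mutant libraries, *NR0B2* 0 to 11 and 6 to 19, *NR6A1* (ENSDARG00000101508) 1 to 4 and 0 to 18, and *nr5a5* 0 to 2 and 0 to 1. *nr0b2b* was at 0 reads in every wild-type library and reached 1 read in GR-mutant libraries. At this depth no difference can be read from these genes.

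Whether copies of one receptor responded differently was tested in all 13 pairs in which both passed the filter, and 4 pairs differed. These are *THRA*, *rxrbb* with *RXRB*, *NR2F6* and *ESR2*, and each of the 4 passed in all 16 alternatives for this test. The copies moved in opposite directions in *THRA* and in *rxrbb* with *RXRB*, with both members called, whereas in *NR2F6* and *ESR2* a single copy was called. The pair of *rarab* and *raraa* had a difference of 0.19 (SE 0.08) and an adjusted p of 0.0610, as for *NR2F1*. Without GR-mutant replicate 4 both passed (adjusted p = 0.0338 and 0.0469), and *NR2F1* also passed without wild-type replicate 7 (adjusted p = 0.0141). The other 7 pairs had adjusted p of at least 0.181, with differences between -0.48 and 0.59. The largest of these was that of *PPARD* (SE 0.32), which passed without wild-type replicate 1 (0.87, adjusted p = 0.0141). Similar copies may share reads, and a ratio of 2 copies describes change and not which copy is more abundant.

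**Figure D4:**
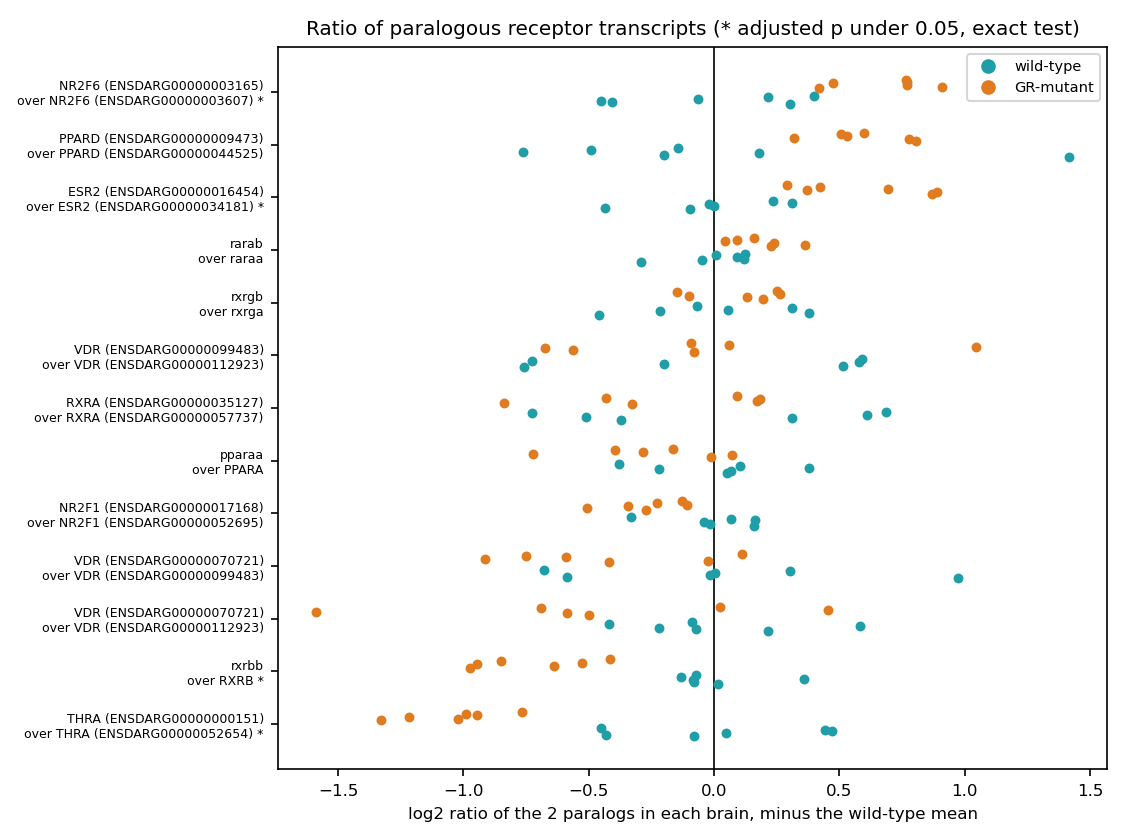
Log2 ratio of the copies of each of 13 receptor pairs in each brain, minus the wild-type mean of that pair (6 wild-type brains, teal; 6 GR-mutant brains, orange). Asterisks mark the 4 pairs with an adjusted p under 0.05; in *THRA*, *rxrbb* with *RXRB* and *NR2F6* no GR-mutant brain lies within the wild-type range.

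Coregulators are the proteins through which receptors repress or activate transcription. Of 27 tested, 2 were higher, 2 lower and 23 did not pass (median log2 fold change 0.07). Among all genes 7.59% were higher and 9.92% lower, so the share called was near the background. The split depended on the scaling, since with equal totals 9 coregulators were higher and 1 lower. *ppargc1b*, a coactivator of the oestrogen-related receptors, fell from 4245 to 8141 (median 7129) to 3452 to 4326 (median 4011), a log2 fold change of -0.71 (adjusted p = 0.00509). *NRIP1*, a corepressor, rose from 1065 to 1411 to 1359 to 1735 (0.32, adjusted p = 0.0127). Its copy *nrip1b* did not pass (log2 fold change 0.02, adjusted p = 0.848). *hdac3*, the deacetylase of the corepressor complex, and *KDM1A*, a histone demethylase, had small changes without overlap (0.21, adjusted p = 0.00643, and -0.15, adjusted p = 0.00722). *KDM1A* no longer passed with equal totals (-0.07, adjusted p = 0.178). With the replicate number as a block, neither *hdac3* (adjusted p = 0.0507) nor *KDM1A* passed. Over all 7 lists, 31 of 135 genes, or 23.0%, were called beside the 17.5% of all genes. Of these, 14 were higher and 17 lower, with 9 higher when GR-mutant replicate 3 was left out. The 31 include *CYP2R1*, *CYP8B1* (ENSDARG00000097556), *SRD5A2* (ENSDARG00000043587) and *hsd3b1*. These met the minimum level wholly or mainly through the genotype in which they were higher, so the share draws no conclusion about the lists.

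Markers of the tissues attached to the brain varied widely among the brains of each genotype. Summed pituitary markers ranged from 6788 to 46062 normalised counts in wild-type and from 366 to 87288 in GR-mutant brains. Of 8 tested, *POMC* was the one called, beside 17.5% called among all genes. *NR5A1* (ENSDARG00000023362), which is expressed in gonadotropes, was at 8.78 to 34.0 and 18.1 to 58.6 (log2 fold change 0.49, adjusted p = 0.346). Its highest value was in GR-mutant replicate 3, the brain with the highest pituitary sum. Its lowest was in wild-type replicate 3, with a sum of 27176, while wild-type replicate 1, with a sum of 6788, had 27.5. With log pituitary markers as a covariate, a fit chosen after the data were seen, the same 9 receptors were called. Photoreceptor and pineal markers summed to 265 to 8840 in wild-type and 207 to 6522 in GR-mutant brains, and no marker was called. *NR2E3*, a receptor of rod photoreceptors, was at 8.11 to 115 and 5.48 to 35.7 (-0.85, interval -2.16 to 0.45, adjusted p = 0.356) and was highest in replicate 2 of each genotype, the brains with the highest sum in their group.

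**Figure D5:**
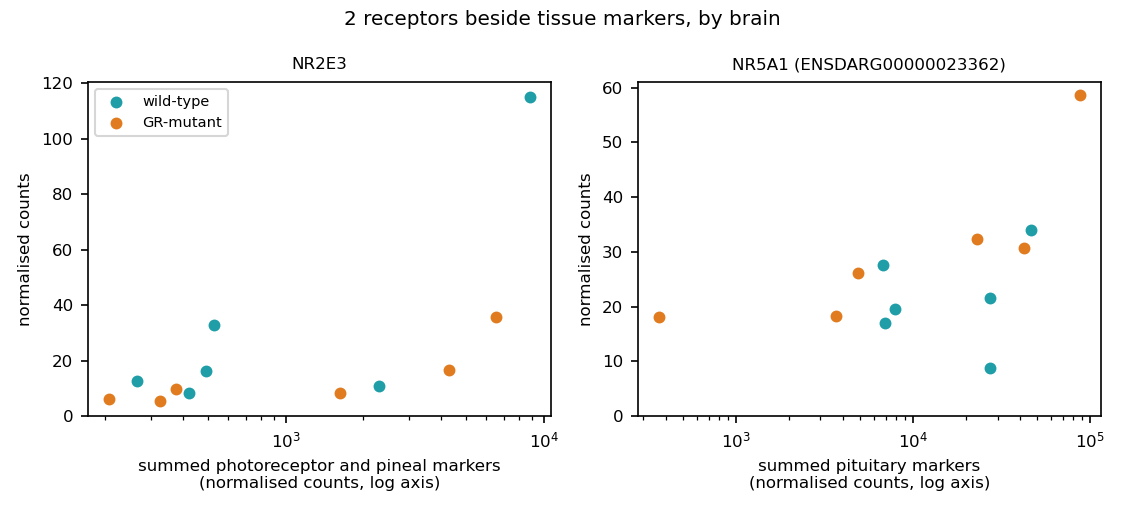
Normalised counts of *NR2E3* against summed photoreceptor and pineal markers (left) and of *NR5A1* (ENSDARG00000023362) against summed pituitary markers (right), 1 point per brain, with a log horizontal axis (6 wild-type, teal; 6 GR-mutant, orange). The brain with the highest marker sum has the highest receptor count in both panels, at 115 for *NR2E3* and 58.6 for *NR5A1*. Other brains do not keep to this order. Wild-type replicate 4 has 32.8 for *NR2E3* at a sum of 528, and wild-type replicate 5 has 10.8 at 2297. Wild-type replicate 3 has the lowest *NR5A1* count, 8.78, at a sum of 27176. The relation was not tested.

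Radial glia markers summed to 129432 to 146582 normalised counts in wild-type and 110857 to 130771 in GR-mutant brains. Of 10 tested, 2 were higher (*SOX2* and *FABP7*) and 2 lower (both *GLUL* IDs). The *GLUL* IDs had medians of 13201 and 41239 in wild-type and 5271 and 30884 in GR-mutant brains. These abundant genes weigh heavily in the sums, which therefore do not describe the markers as a set. Neuronal markers summed to 284537 to 299726 and 267685 to 286609, with *ELAVL4* lower and 9 of 10 not passing. Of 5 endothelial markers tested, 2 were higher and 1 lower, while their sums overlapped (2244 to 2641 and 1962 to 2929). Of 8 oligodendrocyte markers tested, *SOX10* was higher and *olig1* lower (log2 fold changes 0.43 and -0.87), with sums of 239645 to 309190 and 177215 to 384778. Of 7 microglial markers tested, *csf1rb* was higher (0.96), with sums of 11322 to 25864 and 10579 to 15354. Most of these counts were those of *cd74a*, which did not pass (9600 to 21691 and 8522 to 13218). Among all genes tested 7.59% were higher and 9.92% lower. The part of these cell types in the receptor changes was not tested.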

How the data were processed

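RNA was sequenced from 12 brains (6 wild-type, 6 GR-mutant). The authors trimmed paired-end reads (Trimmomatic, version 3.9 in the submitters' processing notes), removed ribosomal sequence, mapped the rest to GRCz11 using STAR, which also gave the count of reads for each gene, and scaled these with the size factors of DESeq2. What was deposited is a signal, the normalised count of each gene. Dividing by the worth of a single read returned whole reads for 100% of values (tolerance 0.001), and these served the count tests.

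The genotypes were compared with limma (version 3.58.1, R 4.3.3, mean-variance trend) on log2 of the normalised count plus 1, with Benjamini-Hochberg adjustment over 20114 genes and a threshold of 0.05. Fold changes are on this scale and understate those of low genes. Copies of a receptor were compared by a two-sided exact permutation test of their log2 ratio over 924 assignments, with a smallest possible p of 0.00216. Pairs were planned from paralog letters, and IDs that share a symbol were added once the name table was seen. *NR2C2AP* matches the letters of the rule but encodes no nuclear receptor and was left out, and 1 tested receptor that did not pass is counted but not reported here.

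Described in full were receptors past the threshold, their copies, the *NR2F1* and *RXRA* IDs (the paper names such genes, not assigned to either ID here) and, from each list, up to 4 genes with the smallest p. Further genes of a list were named after their values were seen. The receptors, lists and tests were chosen with earlier results of these data known. Alternatives were pseudocounts of 0.5 and 5, no filter, a mean of at least 100, upper-quartile scaling, equal totals, a replicate block, edgeR (4.0.16), DESeq2 (1.42.0), no trend, each library left out and, added after seeing the data, a pituitary covariate. The limma and count fits were tested on simulated counts with the same dispersion for every gene, and the changed genes were not drawn from the sparsest. The wider variation of sparse receptors was therefore not covered, and the permutation test of the pairs was not simulated. Which strand the counting used was not given in these sources, and similar copies may share reads. Figures used matplotlib 3.10.9. No sequences were used here.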

Additional observations from a re-analysis of the deposited data

Results flagged for a closer look

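In 92 groups of 6 brains (46 receptors in each genotype), 8 values stood apart from the others of their group by more than the critical value of Dixon's test, which chance exceeds in about 1 in 20 groups. In wild-type brains, *NR2E3* was highest in replicate 2 at 115 normalised counts (the others 8.11 to 32.8), *pparg* was highest in replicate 2 at 60.4 (33.9 to 41.4) and *nr2f5* was lowest in replicate 3 at 31.4 (38.7 to 43.0). In GR-mutant brains, *NR2E3* was highest in replicate 2 at 35.7 (5.48 to 16.5), and *NR2C1* was lowest in the same replicate at 497 (559 to 584). *NR5A1* (ENSDARG00000023362) was highest in GR-mutant replicate 3 at 58.6 (18.1 to 32.4). In GR-mutant replicate 6, *HNF4G* was highest at 25.9 (11.9 to 16.5) and *pparg* lowest at 35.6 (47.6 to 54.2). None of the 9 receptors that passed the test has such a value.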

How the results depend on the processing

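The 9 calls were the same with both pseudocounts, no filter, upper-quartile scaling, edgeR, DESeq2, no trend and the pituitary covariate. Under the stricter filter *THRA* (ENSDARG00000052654) was not tested. *NR1I2*, *rxrbb*, *NR2F1* (ENSDARG00000052695) and *NR2F6* (ENSDARG00000003165) were called in all 23 alternatives. With equal totals, receptors higher numbered 7 and partner genes higher 27 (4 and 14 as reported), and *THRA* (ENSDARG00000000151) was lost (-0.36, adjusted p = 0.0563). Over all genes that scaling gave 3023 higher and 1312 lower. Leaving out 1 library gave 2 to 6 receptors higher, 4 to 6 lower, 9 to 18 partner genes higher, 15 to 19 lower and 4 to 6 differing pairs. Partner genes higher fell to 9 without GR-mutant replicate 3.

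Brains that share a replicate number are separate fish, and their deviations correlated between -0.149 and 0.08 over the 5 shared numbers. With the replicate number as a block, receptors lower numbered 3 and partner genes higher 7. Wild-type replicate 7 and GR-mutant replicate 6 have no counterpart under the block, so its genotype contrast rests on the brains of the 5 shared numbers. *ESR1* (-0.55, adjusted p = 0.0543) and *ESR2* (ENSDARG00000034181; -0.41, adjusted p = 0.0529) were then lost, 2340 genes were called in all (3523 as reported), and 6 pairs differed. The sign turned for 3 receptors near 0, none of them called. *NR2F1* (ENSDARG00000017168) had -0.011 with the block and -0.0048 to 0.080 without 1 library. *NR2F6* (ENSDARG00000003607) had 0.045 with equal totals, 0.00089 with the block and -0.060 to 0.0015 without 1 library. *RXRA* (ENSDARG00000057737) had -0.063 to 0.083 without 1 library. Among the 32 receptors not named in full, 11 changed sign in some alternative. The largest absolute log2 fold change of these 11 in the main fit was 0.141. In the alternatives their values went further, as for *HNF4G* (-0.038 to 0.388) and *nr1h5* (-0.243 to 0.156). Of the 31 partner genes called, 19 kept the call in every alternative that tested them. All the others lost it with the replicate block, whether or not that is stated with the gene. Among them were *HSD17B10* (adjusted p = 0.136), *hsd3b1* (0.122), *CYP7B1* (0.0941), *rbp5* (0.0834), *CYP26B1*, *LPL* and *FABP7*. Why the counts moved was not tested. For the 17 receptors with a mean under 100 normalised counts, brain-to-brain variation was wider, and the part of depth in this was not tested.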
